A study of Homo sapiens with 4 samples.

Results

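The Rab genes of LoVo cells were followed from cells that carry the MET receptor to cells in which MET was knocked out. The members were all protein-coding genes of GENCODE v29 (GRCh38) whose symbol is RAB followed by a digit. This rule found 75 genes of the 58825 in the count tables. Of these, 64 encode Rab GTPases and 11 are other genes that carry a Rab name. The latter are the RAB11 adaptors RAB11FIP1 to RAB11FIP5, the RAB3GAP subunits RAB3GAP1 and RAB3GAP2, the exchange factors RAB3IL1 and RAB3IP, RAB5IF, and the readthrough gene RAB4B-EGLN2.

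LoVo is a human colon adenocarcinoma line. It was grown in DMEM with 10% fetal bovine serum, and RNA was sequenced from transcript 3′ ends with QuantSeq in 4 libraries. Both MET+ libraries are of genotype WT and are described as a GFP control (GFPCTR), and both MET-KO libraries are of genotype MET knock out. The knockout was made with CRISPR/Cas9, with a GFP plasmid added to follow transfection. Puromycin was used to enrich transfected cells, and the knockout cells are clonal lines screened for MET protein. Whether the 2 MET-KO libraries come from 1 clone or from several, and whether the MET+ cells are a clone, is not given in the sources used here. The effect of losing MET and a difference between clones therefore cannot be told apart, and the p-values measure only the spread between these libraries.

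Rab GTPases are small switches that mark membranes. In the GTP-bound form, a Rab sits on a vesicle or organelle through its prenyl tail and recruits effectors such as tethers, motors and adaptors. Exchange factors load it with GTP and GTPase-activating proteins switch it off. Receptors taken up from the surface, MET among them, pass through early endosomes under RAB5 and then return to the surface through RAB4 and RAB11 compartments or travel on to lysosomes under RAB7. In epithelia, RAB11 and its relative RAB25 serve the recycling endosome beneath the apical surface.

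The RAB25 transcript went from rank 9 by level among the members to none, and RAB3C went from almost none to a low level. The bases before their start sites are shown because each gene was expressed in one group and at or near 0 in the other. Sequences are those of RefSeq (GRCh38.p14, + strand, 5′ to 3′), and capitals mark each CG dinucleotide. The RAB25 stretch is chr1:156060910-156061159, the 250 bases before the start. The RAB3C stretch is chr5:58582825-58583039, which leaves out the last 35 of the 250 bases because GENCODE places an exon there. GENCODE also has a longer noncoding RAB3C transcript from 58582221, so the stretch lies inside the annotated gene but outside its exons.
RAB25: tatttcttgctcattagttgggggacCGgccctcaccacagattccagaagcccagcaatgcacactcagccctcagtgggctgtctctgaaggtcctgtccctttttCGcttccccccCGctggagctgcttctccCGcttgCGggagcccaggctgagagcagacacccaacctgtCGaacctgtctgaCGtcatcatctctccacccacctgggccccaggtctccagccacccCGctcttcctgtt
RAB3C: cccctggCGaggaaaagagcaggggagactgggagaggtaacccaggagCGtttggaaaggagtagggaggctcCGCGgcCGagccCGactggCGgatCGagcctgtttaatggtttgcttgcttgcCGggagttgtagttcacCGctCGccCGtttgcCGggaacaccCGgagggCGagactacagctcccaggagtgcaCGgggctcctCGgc

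Over the full 250 bases, RAB25 held 8 CG dinucleotides and RAB3C 21. The median over 35114 RefSeq promoters of this length was 11, with quartiles of 3 and 23, so both genes lay inside the middle range. The table held 83 such promoters for 60 of the 75 members, with a median of 19 CG dinucleotides. RAB26, RAB36, RAB15, RAB12, RAB20 and RAB33B were among the 15 members without an entry. For 3 short motifs, both strands were searched. GGAATG, the core that TEAD factors bind, was in a promoter of 6 members and in 11.9% of all promoters. This is 7.23% of the 83 member promoters. CACCTG, an E-box read by the repressors ZEB and SNAI, was in a promoter of 15 members, in 19.3% of member promoters and in 17.5% of all promoters. The RAB25 promoter held 1 copy, which began 41 bases before the start. TGANTCA, the AP-1 site, was in a promoter of 6 members, in 7.23% of member promoters and in 6.57% of all promoters. A match of letters is a description of the window and not evidence of binding.

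The libraries held 8429142 to 10286552 counts. MET itself had 2794 and 3272 counts in MET+ and 861 and 965 in MET-KO libraries, a log2 fold change of −1.96 ± 0.09 (SE, adjusted p = 1.49e-18). Fold changes here are MET-KO over MET+ and were tested with the quasi-likelihood method of edgeR, with p-values adjusted by Benjamini-Hochberg over 13801 genes and a threshold of 0.05. The groups were far apart, since 54.1% of all tested genes were called, 27.2% higher and 26.9% lower. They also differed over whole chromosomes, with a median log2 fold change of −0.51 on chromosome 14, −0.43 on chromosomes 5 and 15 and −0.32 on chromosome 12. The median was 0.5 on chromosome 7, which carries MET, and 0.3 on chromosome 21. Less the median of chromosome 7, the change of MET was −2.46. The genes of the Y chromosome summed to 57 and 45 counts in MET+ and 7200 and 7330 in MET-KO libraries. Of 10 colon epithelium markers, the summed level in MET+ libraries was 9670 and 9690 CPM (counts scaled to the library total after TMM). In MET-KO libraries it was 8320 and 7330 CPM, and KRT18 held most of the sum. CDH17 and CDX1 were at 0 in MET-KO cells and KRT20 and CDX1 at 0 in MET+ cells. Of the 9 tested, 2 were higher and 6 were lower in MET-KO cells, against 27.2% and 26.9% of all genes. By log2 fold change, EPCAM (−1.11), CDH1 (−0.88) and VIL1 (−4.23) were lower and CDX2 (1.04) was higher. The leukocyte markers PTPRC and CD3E, the fibroblast markers COL1A2 and DCN and the endothelial markers CDH5 and KDR had 0 counts in all 4 libraries. The summed leukocyte level was 5.92 and 9.75 CPM in MET+ and 0.882 and 0.829 CPM in MET-KO libraries, where LYZ was lower (38 and 79 against 3 and 1 counts). The summed fibroblast level was 2.17 and 1.65 CPM in MET+ and 3.62 and 4.23 CPM in MET-KO libraries, where COL3A1 was higher (4 and 5 against 24 and 26 counts). The endothelial list summed to at most 0.924 CPM. The part of these markers in the Rab values was not tested.

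Rab genes as a whole moved about as often as other genes. Of the 56 members with enough counts to be tested, 12 were higher and 17 were lower in MET-KO cells and 27 were not called. The called members were 51.8% of those tested, and 54.1% of all tested genes were called. With at least a 2-fold change, 6 members were higher and 4 were lower, against 24.3% of all genes for both directions. In 44 of the 56, both libraries of a group lay on the same side of the other group, against 75.6% of all genes. The median log2 fold change was −0.06 for the members and 0.01 for all genes, and the median absolute change was 0.36 and 0.48. The 46 tested GTPases split into 12 higher and 13 lower. The 10 tested genes that only carry a Rab name had 4 lower and 0 higher.

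**Figure D1:**
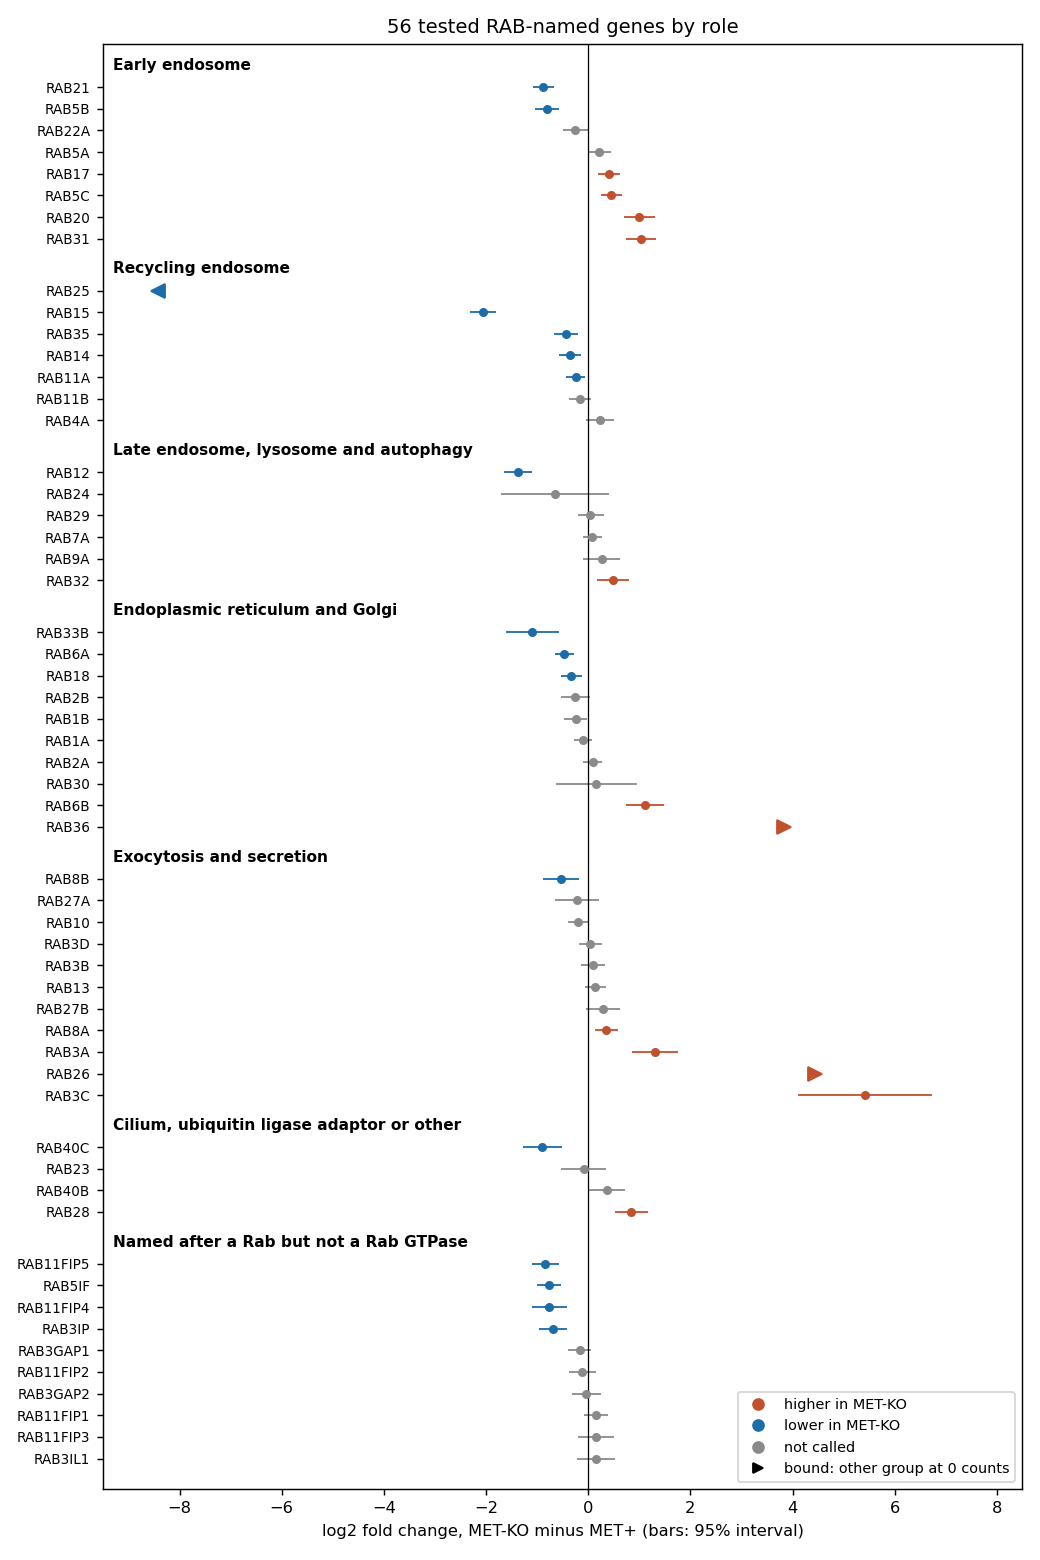
The log2 fold change (x axis, MET-KO minus MET+) of the 56 tested members (y axis) in 7 groups by role, with 95% intervals. Arrowheads are bounds for members at 0 counts in both libraries of a group. Recycling endosome members lie mostly to the left, with RAB25 at −8.43 or beyond, and the early endosome members lie on both sides.

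The recycling endosome group had calls in only 1 direction. Of its 8 members, 7 were tested, 5 were lower and none was higher, against 26.9% lower among all genes. Its summed level was 562 and 581 CPM in MET+ and 373 and 351 CPM in MET-KO libraries. CPM values were scaled by TMM (trimmed mean of M values) and were not divided by transcript length, because QuantSeq reads come from transcript ends. RNA was taken from whole cultures, so fewer expressing cells and less RNA per cell cannot be told apart.

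RAB25 is the epithelial member of the RAB11 group and lies at 156061160 to 156070514 on chromosome 1. The MET+ libraries held 852 and 914 RAB25 counts and the MET-KO libraries 0 and 0. Both MET+ libraries were high and both MET-KO libraries were empty, with no overlap. The level of 98.4 ± 6.46 CPM (SD, n = 2) in MET+ cells was at least 345-fold higher than in MET-KO cells, taking 3 counts per library as the limit that a count of 0 allows. The edgeR quasi-likelihood test gave an adjusted p of 4.26e-25. RAB25 had enough counts to be tested only through the MET+ libraries, so only a fall could be called. By size of the fitted fall, RAB25 stood at rank 5 of all tested genes. The surrounding genes moved both ways. Among 26 tested genes within 500 kb (500000 bases) of RAB25, 6 were higher and 4 were lower, against 27.2% and 26.9% of all genes. Their median log2 fold change was 0.08, and the nearest on each side, MEX3A and LAMTOR2, changed by 1.06 and 0.27.

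RAB15 directs receptors from sorting to recycling endosomes and lies on chromosome 14 from 64945814 to 64973226. It had 577 and 629 counts in MET+ and 159 and 179 in MET-KO libraries. All MET-KO values lay far below the MET+ values. Its mean was 67.1 ± 3.65 CPM with MET and 16.0 ± 0.632 CPM without (SD, 2 libraries each), a log2 fold change of −2.06 ± 0.13 (SE, edgeR adjusted p = 1.21e-15). Most tested genes near RAB15 were lower as well. Of 11 tested genes within 500 kb, 9 were lower and 0 were higher, against 26.9% and 27.2% of all genes. Their median was −0.95. GPX2, which encodes a glutathione peroxidase of the gut epithelium, was the lowest of them. The nearest on each side, CHURC1 and FNTB, changed by −0.30 (not called) and −1.37. Less the median of chromosome 14, the change of RAB15 was −1.55. The gene overlaps the readthrough CHURC1-FNTB on the other strand, as RAB3A does MPV17L2 and RAB6B does SRPRB. Other members have such overlaps too, among them RAB14 with GSN, RAB11A with DENND4A and RAB5A with PP2D1. The strand setting used in counting is not given in the sources used here, so reads of such pairs may be mixed.

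The other recycling members changed less. RAB35, which drives fast recycling to the surface, had 432 and 443 counts in MET+ and 368 and 387 in MET-KO libraries. Scaled for depth, both MET-KO libraries lay below both MET+ libraries, with a log2 fold change of −0.44 ± 0.12 (SE, edgeR adjusted p = 0.00217). Less the median of chromosome 12 this became −0.13.

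RAB14 works between endosomes and the Golgi. Its level was 68.5 and 78.1 CPM in MET+ and 60.7 and 53.8 CPM in MET-KO libraries, without overlap, a log2 fold change of −0.36 ± 0.11 (SE, edgeR adjusted p = 0.006). This call was lost without MET+ replicate 2 (−0.27, adjusted p = 0.107) and without MET-KO replicate 2 (−0.27, adjusted p = 0.0875).

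RAB11A, the general Rab of the recycling endosome, was at 142 and 140 CPM in MET+ and 118 and 120 CPM in MET-KO libraries. The groups did not overlap, but the change was small (log2 fold change −0.24 ± 0.09, SE, edgeR adjusted p = 0.0282). Leaving out any 1 of the 4 libraries ended this call, with adjusted p from 0.0649 to 0.125. Its chromosome, 15, had a median of −0.43, so the change relative to that median was 0.18.

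RAB11B, its close paralog, was at 104 and 134 CPM in MET+ and 114 and 98.4 CPM in MET-KO libraries. The groups overlapped, and the log2 fold change of −0.16 ± 0.11 (SE) was not called (edgeR adjusted p = 0.205). Its value was 0.03 without MET+ replicate 2, and it was called lower without MET+ replicate 1 (−0.33, adjusted p = 0.0238) and without MET-KO replicate 1 (−0.28, adjusted p = 0.0453). RAB4A, which serves fast recycling from early endosomes, was at 22.2 and 24.9 CPM in MET+ and 28.6 and 26.8 CPM in MET-KO libraries, a log2 fold change of 0.23 with a 95% interval from −0.05 to 0.51. RAB4B had 2 and 5 counts in MET+ and 3 and 3 in MET-KO libraries and was not tested. It shares its strand and part of its 3′ end with the readthrough MIA-RAB4B.

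**Figure D2:**
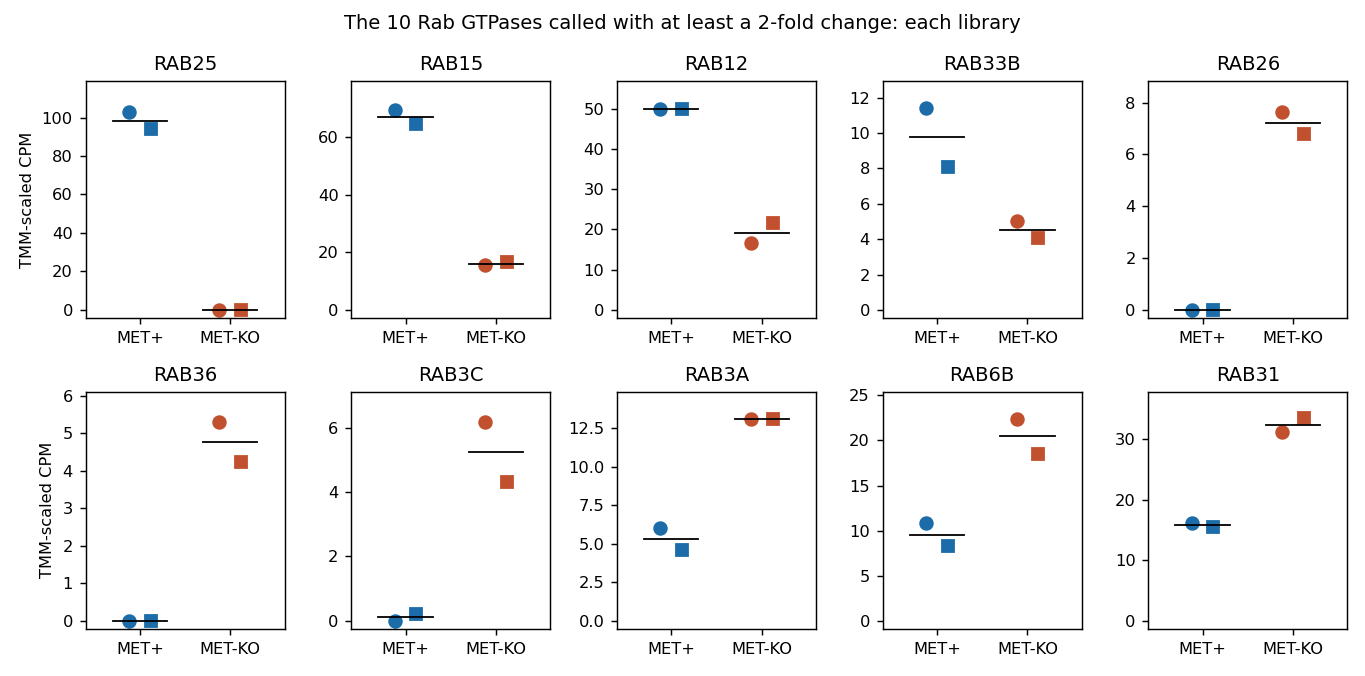
TMM-scaled CPM (y axis) of the 10 Rab GTPases called with at least a 2-fold change, in the MET+ (blue) and MET-KO (red) libraries. Circles are replicate 1, squares replicate 2, and lines the group means. RAB25 is at 0 in both MET-KO libraries, RAB26 and RAB36 are at 0 in both MET+ libraries, and no panel has overlapping groups.

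The early endosome group moved both ways. All 8 members were tested, 4 were higher and 2 were lower, against 27.2% and 26.9% of all genes, and the summed level stayed at 403 to 422 CPM in all 4 libraries. The RAB5 paralogs, which govern fusion of endocytic vesicles, changed in different directions. RAB5B was at 52.9 and 56.7 CPM in MET+ and 33.3 and 29.6 CPM in MET-KO libraries. Both MET-KO values were the lower ones, and the log2 fold change was −0.80 ± 0.12 (SE, edgeR adjusted p = 7.72e-07). RAB5C was at 64.6 and 57.2 CPM in MET+ and 81.6 and 85.0 CPM in MET-KO libraries. Here both MET-KO values were the higher ones (log2 fold change 0.45 ± 0.11, SE, edgeR adjusted p = 0.000462). RAB5C shares part of its 3′ end with the overlapping locus AC099811.2, so its reads are uncertain. RAB5A was at 76.5 and 59.7 CPM in MET+ and 79.7 and 78.4 CPM in MET-KO libraries and was not called (log2 fold change 0.22 ± 0.11, SE, edgeR adjusted p = 0.0968). It was called without MET+ replicate 1 (0.41, adjusted p = 0.00936) and was at 0.04 without MET+ replicate 2. RAB5B made up 27.3% and 32.6% of the RAB5 total in MET+ and 17.1% and 15.3% in MET-KO libraries, while the total was 174 to 195 CPM throughout.

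RAB21, which regulates integrin traffic, was the other early endosome Rab that fell. It had 880 and 945 counts in MET+ and 557 and 604 in MET-KO libraries. The groups were well separated (log2 fold change −0.88 ± 0.10, SE, edgeR adjusted p = 7.13e-09). RAB5B and RAB21 both lie on chromosome 12, and less its median they changed by −0.48 and −0.56.

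RAB31, a RAB5 relative that acts between the trans-Golgi network and endosomes, had 134 and 151 counts in MET+ and 318 and 364 in MET-KO libraries. Both MET-KO values were the higher ones, with a log2 fold change of 1.03 ± 0.15 (SE, edgeR adjusted p = 3.95e-07). Its paralog RAB22A was at 39.2 and 48.2 CPM in MET+ and 37.7 and 35.8 CPM in MET-KO libraries and was not called (−0.25 ± 0.12, SE, edgeR adjusted p = 0.0835), though it was without MET+ replicate 1 (−0.39, adjusted p = 0.0183). RAB31 thus made up 29.3% and 24.3% of the pair in MET+ and 45.3% and 48.3% in MET-KO libraries.

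RAB20, found on early endosomes and phagosomes, had 128 and 155 counts in MET+ and 351 and 308 in MET-KO libraries. Both MET-KO values were higher, and the log2 fold change was 0.998 ± 0.15 (SE, edgeR adjusted p = 1.31e-06), just under the 2-fold mark. RAB17, an epithelial Rab, was at 49.3 and 53.1 CPM in MET+ and 69.7 and 65.7 CPM in MET-KO libraries, also without overlap (0.40 ± 0.11, SE, edgeR adjusted p = 0.00214).

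**Figure D3:**
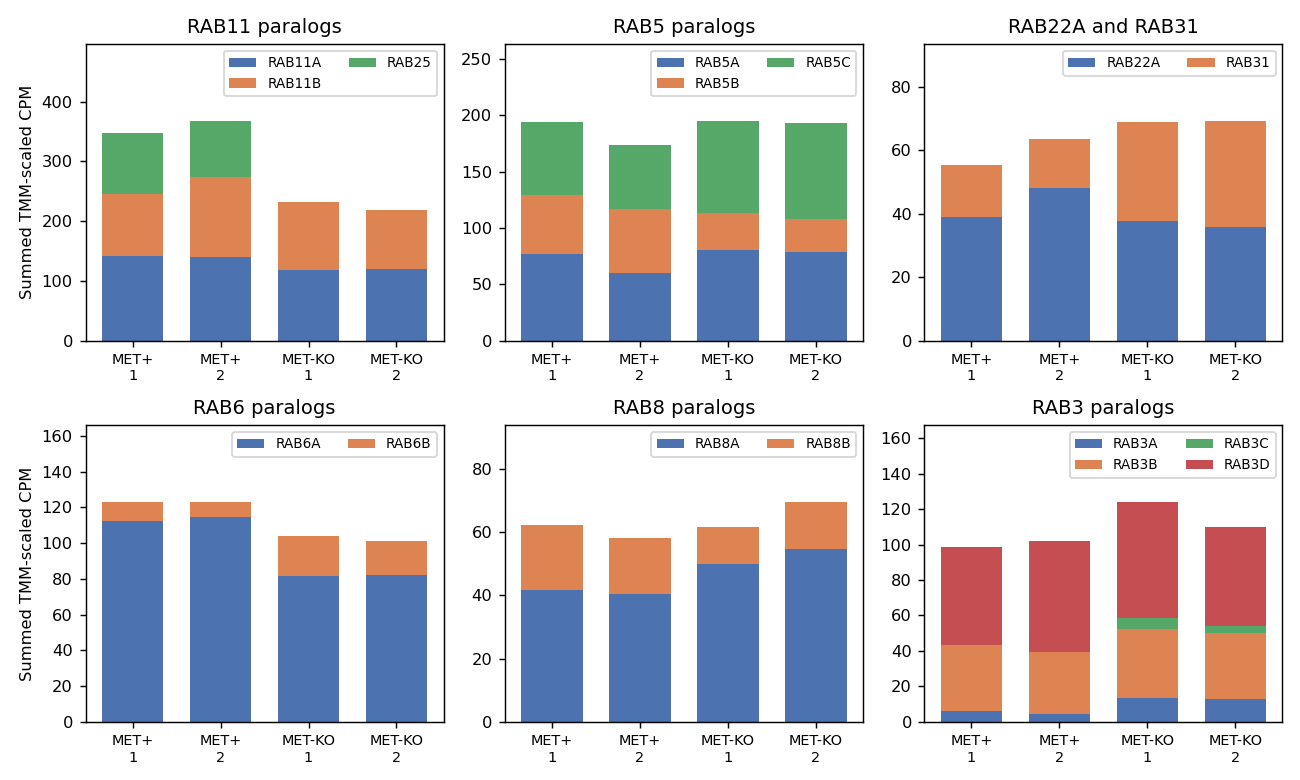
Summed TMM-scaled CPM (y axis) of 6 sets of Rab paralogs in each library (x axis), with a coloured segment for each gene. The RAB11 total is 348 and 368 in MET+ and 232 and 218 in MET-KO libraries with the RAB25 segment gone, while the RAB5 total is at 174 to 195 and its RAB5B segment is thinner in MET-KO libraries.

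RAB25 made up 29.6% and 25.5% of the RAB11 group in MET+ libraries. Without it, RAB11A and RAB11B together formed the whole of that group in MET-KO cells. In the RAB6 pair, which works at the Golgi, RAB6A fell (log2 fold change −0.47 ± 0.10, SE) and RAB6B rose from 89 and 81 to 228 and 201 counts. The RAB6B libraries did not overlap, with a log2 fold change of 1.11 ± 0.19 (SE, edgeR adjusted p = 7.98e-06), and its share of the pair went from 8.76% and 6.78% to 21.6% and 18.4%. RAB6A shares 19.6% of the 50-base words in its 3′ end with RAB6C and RAB6D, both at 0 counts in these files. In the RAB8 pair, which serves transport to the surface and cilium, RAB8A was higher (0.35 ± 0.12, SE) and RAB8B lower (−0.53 ± 0.18), with a summed level of 58.1 to 69.5 CPM. Less the median of chromosome 15, RAB8B changed by only −0.1. RAB8A shares 31.5% of its 3′-end words with the overlapping gene HSH2D. The RAB8A call was lost without MET+ replicate 2 and without MET-KO replicate 2, and the RAB8B call without either replicate 1.

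Along the degradative route, 6 of 9 members were tested and 4 of these were not called. There was 1 higher and 1 lower, against 27.2% and 26.9% of all genes. RAB7A, the Rab of late endosomes and lysosomes and one of the best expressed members, was at 167 and 167 CPM in MET+ and 186 and 168 CPM in MET-KO libraries. Its log2 fold change was 0.08, with a 95% interval from −0.10 to 0.26 (edgeR adjusted p = 0.481). RAB12, which sends recycling receptors to lysosomes and takes part in autophagy, had 412 and 487 counts in MET+ and 169 and 236 in MET-KO libraries. Both MET-KO libraries were far below, with a log2 fold change of −1.38 ± 0.14 (SE, edgeR adjusted p = 1.80e-10). The 1 member of the group that was higher was RAB32, which serves lysosome-related organelles (0.48 ± 0.16, SE, edgeR adjusted p = 0.0104). That call was lost without MET-KO replicate 2.

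Among the exocytic Rabs, 11 of 13 were tested, 4 were higher and 1 was lower, against 27.2% and 26.9% of all genes. RAB26, which links secretory and synaptic vesicles to autophagy, had 0 and 0 counts in MET+ and 78 and 74 in MET-KO libraries. Its level in MET-KO cells, 7.23 ± 0.589 CPM (SD, n = 2), was at least 21.6-fold that in MET+ cells (edgeR adjusted p = 7.65e-11). RAB26 had enough counts to be tested only through the MET-KO libraries, so only a rise could be called. Among the 43 tested genes within 500 kb, 11 were higher and 11 were lower, against 27.2% and 26.9% of all genes.

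The RAB3 family drives regulated secretion and is best known from neurons and glands. RAB3C had 0 and 2 counts in MET+ and 63 and 47 in MET-KO libraries. Both MET-KO libraries were clearly above, a ratio of 47.1 with a 95% counting interval from 12.7 to 393 (edgeR adjusted p = 2.16e-08), an interval that covers counting error only. Because this rests on 2 counts in 1 library, the fitted log2 fold change of 5.41 became 4.6 without MET+ replicate 1 and 8.68 without MET+ replicate 2. RAB3C had enough counts to be tested only through the MET-KO libraries, so only a rise could be called. Its 2 tested neighbours within 500 kb, PLK2 and PDE4D, were higher as well, PDE4D by 2.67 on the log2 scale, while the median of chromosome 5 was −0.43. RAB3A had 50 and 45 counts in MET+ and 134 and 142 in MET-KO libraries, without overlap (log2 fold change 1.31 ± 0.23, SE, edgeR adjusted p = 1.17e-05). The main members by level, RAB3B and RAB3D, were not called (0.09 and 0.04). RAB3A and RAB3C together remained a minor part of the family, at 10.6% and 11.8% for RAB3A and 5.00% and 3.92% for RAB3C in MET-KO libraries.

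In the endoplasmic reticulum and Golgi group, 10 of 19 members were tested, 2 were higher and 3 were lower, a share near the 54.1% called among all genes. RAB36 had 0 and 0 counts in MET+ and 54 and 46 in MET-KO libraries. This is a level of 4.77 ± 0.749 CPM (SD, n = 2) in MET-KO cells, at least 14.2-fold that in MET+ cells (edgeR adjusted p = 8.02e-09). RAB36 had enough counts to be tested only through the MET-KO libraries, so only a rise could be called. Its neighbour GNAZ was also higher (1.31), and BCR on the other side was not called (0.21). RAB33B, a Golgi Rab that takes part in autophagosome formation, had 94 and 79 counts in MET+ and 51 and 44 in MET-KO libraries. The groups did not overlap, with a log2 fold change of −1.10 ± 0.26 (SE, edgeR adjusted p = 0.000697). RAB18, linked to lipid droplets, was lower by a smaller step (−0.33 ± 0.11, SE), a call lost without either MET+ replicate 1 or MET-KO replicate 2. The housekeeping Rabs RAB1A, RAB1B, RAB2A and RAB2B were not called, with changes from −0.25 to 0.09.

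Of the RAB40 genes, which serve as adaptors of ubiquitin ligases, RAB40C was lower (−0.90 ± 0.19, SE, edgeR adjusted p = 0.000171). RAB40B, which directs protease secretion at invasive protrusions, had 116 and 124 counts in MET+ and 172 and 191 in MET-KO libraries. Scaled for depth the groups did not overlap, but the change was not called (0.37 ± 0.18, SE, edgeR adjusted p = 0.0765). RAB28, a ciliary Rab, was higher (0.84 ± 0.16, SE, edgeR adjusted p = 4.07e-05).

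Among the 10 tested genes named after a Rab, 4 were lower, against 26.9% of all genes. RAB11FIP5 (−0.85 ± 0.14, SE) and RAB11FIP4 (−0.76 ± 0.17) are adaptors that tie RAB11 to motors and membranes. RAB3IP, also known as Rabin8, is the exchange factor that activates RAB8 (−0.69 ± 0.14). Less the median of chromosome 12, RAB3IP changed by −0.37. RAB5IF encodes a small membrane protein (−0.77 ± 0.12), and 50.6% of its 3′-end words are shared with TGIF2-RAB5IF. RAB11FIP1, RAB11FIP2 and RAB11FIP3, of which RAB11FIP1 also binds RAB25, were not called, with changes of 0.15, −0.12 and 0.15.

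The other 19 members were not tested, since none had more than 17 counts over all libraries. Of these, 8 had 0 counts in every library. Among the 8, RAB43 shares 88.8% of its 50-base 3′-end words with other genes. The share is 100% for RAB4B-EGLN2, 55.4% for RAB6C, 60.6% for RAB6D and 12.9% for RAB40A. The reads of these genes are uncertain, so 0 counts need not mean no transcript. Chosen after their values were seen, RAB42 had 12 and 5 counts in MET+ and 0 and 0 in MET-KO libraries, and RAB39A had 0 and 0 in MET+ and 6 and 6 in MET-KO libraries. At the other end, 5 members were above 100 CPM in all 4 libraries. They were RAB1A, RAB2A, RAB7A, RAB10 and RAB11A.

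**Figure D4:**
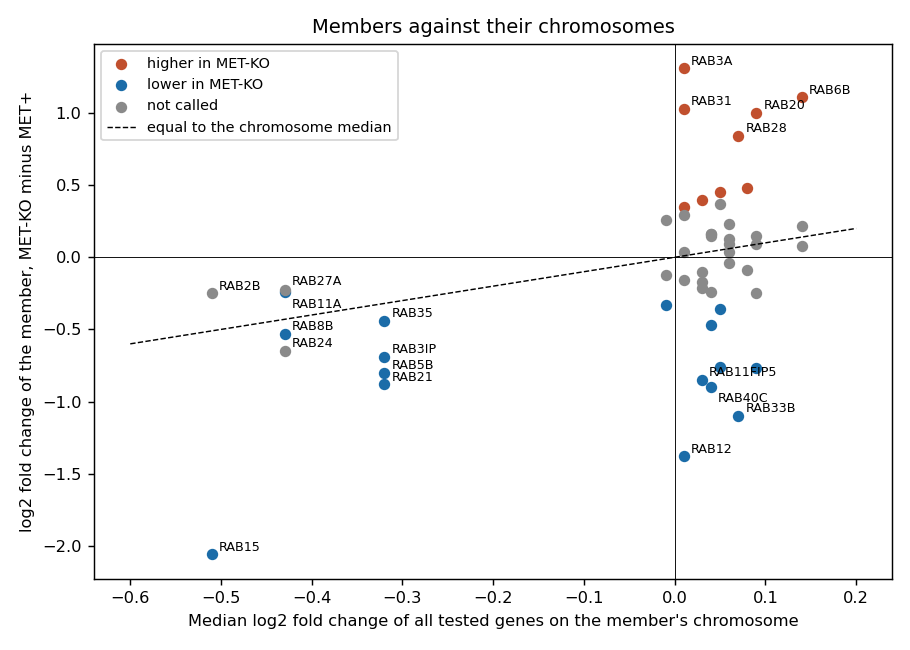
The log2 fold change of each member (y axis) against the median log2 fold change of all tested genes on its chromosome (x axis). RAB25, RAB26, RAB36 and RAB3C lie beyond the plotted range and are left out, and the dashed line marks equality. The plotted members at medians under −0.3 were lower or not called, and most plotted members lie at medians near 0.

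Several calls lay on chromosomes whose genes moved as a whole. Of the 11 tested members on chromosomes 5, 12, 14 and 15, all but RAB3C had negative fold changes, 10 in number. Of the 11, 7 were called lower, against 26.9% of the tested genes of all chromosomes together. The share of genes called lower on these chromosomes alone was not counted, so no excess among Rab genes can be read from this. Most tested genes on these chromosomes also had negative fold changes, with medians from −0.51 to −0.32. After each median was subtracted, all 12 members called higher and 16 of the 17 called lower kept the sign of their change. RAB11A was the exception. A sign can turn only where the median exceeds the change in size, and most members lay at medians near 0. A kept sign is thus not a kept call, and RAB35 and RAB8B kept theirs at only −0.13 and −0.1. The part of the chromosome medians in these changes was not tested.

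The machinery around the Rabs was also read out, from a list of 126 genes for prenylation and extraction, guanine nucleotide exchange, GTPase activation and effector function. Of the 120 tested, 30 were higher and 29 were lower, against 27.2% and 26.9% of all genes, with a median log2 fold change of 0.04. These adjusted p-values are from the same edgeR fit.

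Rab proteins need a geranylgeranyl tail to reach membranes. Both subunits of the enzyme that attaches it were lower, RABGGTA by −0.76 ± 0.15 and RABGGTB by −0.61 ± 0.10 (SE). RABGGTA lies on chromosome 14, and less its median the change was −0.24. The extraction factor GDI2 was also lower (−0.37 ± 0.09). The escort protein CHML (0.65 ± 0.13) and the prenylated Rab acceptor RABAC1 (0.70 ± 0.13) were higher. CHM was higher as well (0.72 ± 0.28). In this group 3 of 8 genes were higher and 3 were lower, against 27.2% and 26.9% of all genes.

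Of 33 tested exchange factors, 9 were higher and 5 were lower, 42.4% in all against 54.1% of all genes. DENND5B (1.23 ± 0.19) and DENND1A (1.07 ± 0.16), the latter an activator of RAB35, were among the higher ones. CCZ1B, part of the complex that loads RAB7, was higher (1.25 ± 0.12), but its reads are uncertain because CCZ1 is a nearly identical copy and both lie on chromosome 7, whose median was 0.50 (0.75 less that median). RIN2, an activator of RAB5, was lower (−0.86 ± 0.15), as were MON1A (−0.66 ± 0.21), the partner of CCZ1, and RGP1 (−0.55 ± 0.11), part of the RAB6 exchange factor. MON1B, at 46.3 CPM against 12.5 CPM for MON1A in MET+ cells, was not called (−0.04 ± 0.11). CCZ1 was not called either (0.04 ± 0.13).

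Of 32 tested GTPase-activating proteins, 6 were higher and 9 were lower, 46.9% in all against 54.1% of all genes. TBC1D2 (−1.72 ± 0.19), which acts on RAB7, TBC1D30 (−1.36 ± 0.19) and TBC1D2B (−1.30 ± 0.20) fell. Less the medians of chromosomes 12 and 15, TBC1D30 and TBC1D2B changed by −1.04 and −0.88. TBC1D5 (1.57 ± 0.19), which acts on RAB7 with retromer, TBC1D9 (1.33 ± 0.21) and USP6NL (1.25 ± 0.14), which acts on RAB5, rose.

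Of 47 tested effectors, 12 were higher and 12 were lower, 51.1% in all against 54.1% of all genes. MYO5C (−1.32 ± 0.13), a myosin of epithelial secretory granules, RUFY1 (−1.25 ± 0.11), an effector of RAB4 and RAB14, and EXPH5 (−1.18 ± 0.18), a RAB27 effector, fell. Less the medians of chromosomes 15 and 5, MYO5C and RUFY1 changed by −0.90 and −0.82. UNC13D had 15 and 39 counts in MET+ and 213 and 148 in MET-KO libraries. It encodes Munc13-4, a RAB27 effector of granule release, and its log2 fold change was 2.53 ± 0.28 without overlap of groups (adjusted p = 1.71e-09). OPTN, the RAB8 effector optineurin, had 351 and 400 counts in MET+ and 1531 and 1629 in MET-KO libraries, a log2 fold change of 1.85 ± 0.10 (adjusted p = 8.48e-17). OSBPL1A, an effector of RAB7, was higher as well (1.27 ± 0.18).

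A pair of RAB27 effectors, chosen after their values were seen, went to 0. SYTL5 had 80 and 110 counts in MET+ and 0 and 0 in MET-KO libraries. MLPH, which encodes melanophilin, had 49 and 83 counts in MET+ and 0 and 0 in MET-KO libraries, a level at least 25.3-fold lower. RAB27A and RAB27B, the Rabs that they bind, were not called (−0.23 and 0.29).

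**Figure D5:**
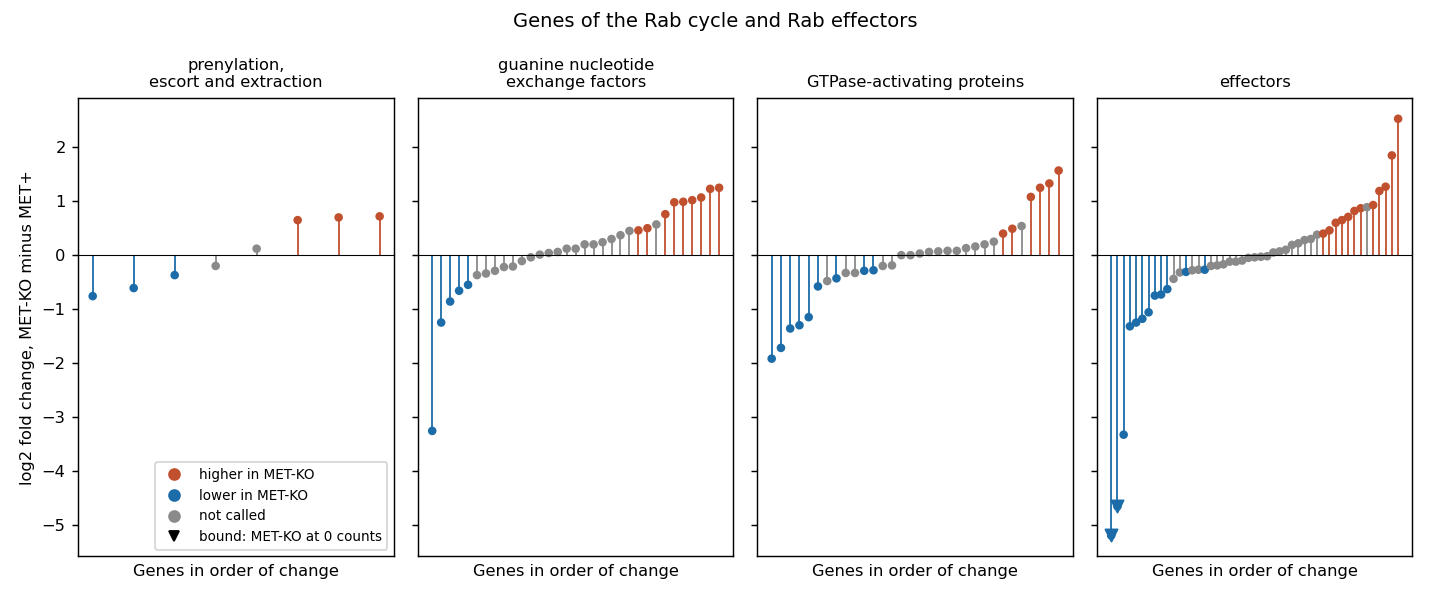
The log2 fold change (y axis, MET-KO minus MET+) of the 120 tested regulators and effectors in 4 panels, with the genes of each panel in order of change (x axis). Red points were called higher, blue lower and grey not called, and triangles are bounds for SYTL5 and MLPH, at 0 in both MET-KO libraries. Each panel has calls on both sides of 0.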

How the data were processed

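RNA of 2 MET+ and 2 MET-KO LoVo cultures was sequenced from QuantSeq 3′ libraries, and the authors deposited whole read counts per gene without normalization. The submitters' processing notes list cutadapt 1.16, STAR 2.5.4a, featureCounts 1.6.2, DESeq2 1.18.1 and GRCh38. The annotation release and strand setting are not given in the sources used here. Names and positions come from GENCODE v29, which held 58552 of the 58825 gene IDs, and the rest held at most 0.00396% of a library. The 99 spike-in rows held 0 counts.

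All genes were fitted in R 4.3.3 with edgeR 4.0.16 (filterByExpr by group, TMM, quasi-likelihood test, condition as the only term) and adjusted by Benjamini-Hochberg over 13801 genes. An exact permutation test of 2 against 2 libraries cannot give a two-sided p under 0.333. The script was tested on simulated data with known changes. The floor for a count of 0 was 3 counts per library, or 0.276 to 0.363 CPM after TMM. Replicates differed by more than counting noise (chi-square per degree of freedom 5.45 and 4.86).

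The members and lists were chosen with earlier results of these data known. Members named with values in every library are those called with a change of at least 2-fold and no overlap, all early and recycling endosome Rabs, RAB7A and RAB40B. Of the regulators, these are the 3 highest and 3 lowest called in each group whose mean log2 CPM reached 3. Other genes named were chosen after their values were seen. Shared 3′-end words are 50-base words in the last 300 bases of a transcript found in another gene. Alternatives were DESeq2 size factors, library totals, the Wald test of DESeq2 1.42.0, no filter, a minimum of 10 counts per library, a replicate block, thinning to the smallest library, leaving out each library, a 2-fold threshold, subtraction of chromosome medians and GTPases only. Figures were drawn with matplotlib 3.10.9.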

Additional observations from a re-analysis of the deposited data

How the results depend on the processing

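Calls among the 56 tested members held under most settings. DESeq2 size factors and thinning to the smallest library kept all 29, library totals 25 and the DESeq2 Wald test 23. The calls lost under these last settings were among RAB11A, RAB14, RAB18, RAB32, RAB8A and RAB8B, and with library totals RAB5A and RAB40B gained a call. With at least 10 counts in every library, RAB25, RAB26, RAB36 and RAB3C could not be tested. Under that setting RAB11A lost its call and RAB5A gained a call. The number called higher ranged from 10 to 14 and the number called lower from 15 to 19 when 1 library was left out, and up to 5 members gained a call. A 2-fold threshold left 6 higher and 4 lower. The median member change was −0.06, and it was 0.04 with library totals (0.11 for all genes), −0.01 after subtraction of chromosome medians, 0.04 over the GTPases alone and −0.12 to −0.04 when 1 library was left out. The value of RAB11B ran from −0.33 without MET+ replicate 1 to 0.03 without MET+ replicate 2, a turn of sign. The cause of these shifts was not tested.

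Replicate numbers did not pair the libraries (correlation of deviations −0.0216 over 2 pairs). With a replicate block, 12 members were higher and 16 lower, and RAB11A lost its call. With 2 libraries per group, small changes such as those of RAB11B, RAB4A and RAB5A were not resolved.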
